A study of Mus musculus with 32 samples.

Results

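The genes described here encode the constitutive subunits of the proteasome, the particle that degrades ubiquitin-tagged proteins. The set is the 33 genes whose names in the deposited count table match a listed subunit, out of 56748 genes in that table. By subcomplex, 7 are alpha subunits of the core (Psma), 7 are beta subunits of the core (Psmb), 6 are ATPases of the regulatory particle (Psmc) and 13 are its non-ATPase subunits (Psmd, with Adrm1 and Sem1). All 33 were found once and all passed the filter on low counts, which left 16984 genes, and the lowest count of any member in any library was 1098.

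The samples were wild-type primary white adipocytes, prepared from mouse subcutaneous adipose tissue and silenced in culture. The 4 siRNA treatments were a scrambled sequence (scramble), siNfe2l1, siAtf3, or siNfe2l1 together with siAtf3 (double silencing). Cells of each kind were then kept as controls or loaded for 6 h with cholesterol at 400 µM, carried by methyl-β-cyclodextrin, a ring of sugars that holds sterols. This gave 8 groups of 4 libraries of polyadenylated RNA, with 23457384 to 33828418 counted reads per library. Sex and age of the mice, and whether controls received the carrier, are not given in the sources used here. The libraries within a group are described as biological replicates, with no mouse or culture named, so the p-values measure the spread between these libraries.

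The core particle is a barrel of stacked rings. Its outer rings are built of alpha subunits that gate the entry, and its inner rings of beta subunits, among which Psmb5, Psmb6 and Psmb7 carry the catalytic sites. The regulatory particle caps the barrel, where the Psmc ATPases unfold substrates and the Psmd subunits bind, deubiquitinate and position them. NFE2L1, a transcription factor anchored in the endoplasmic reticulum, is known to raise the proteasome genes together when proteasome capacity is short, and it is required for this in thermogenic fat. ATF3 is a stress-induced transcription factor of the same broad (basic leucine zipper) class.

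Levels are in CPM, a gene's reads relative to its library's total, on library sizes scaled by the TMM method, and differences are log2 fold changes ± standard error (SE) from edgeR's quasi-likelihood model of all genes and groups, called at an adjusted p under 0.05. In the scramble control cells Nfe2l1 mRNA stood at 487 ± 6.02 CPM (SD, n = 4), and siNfe2l1 left 73.8 ± 8.66 CPM, which was 15.2% of it. Percentages are of the scramble group in the same medium. Double silencing left 23.4% in control cells. In cholesterol scramble cells Nfe2l1 stood higher, at 814 ± 43.3 CPM. Double silencing left 19.3% of that (157 CPM), and siNfe2l1 alone 14.7% (120 CPM). Atf3 mRNA was low in scramble control cells (26.8 ± 2.43 CPM), where siAtf3 left 37.8% and double silencing 57.2%. In cholesterol Atf3 rose to 398 ± 129 CPM, and siAtf3 left 10.3% of that (40.9 CPM) and double silencing 12.8% (50.8 CPM). Both remained above the mean of scramble control cells. With siNfe2l1 alone in cholesterol Atf3 was at 268 ± 157 CPM, 67.3% of scramble, so Atf3 levels also differed in that comparison, with a wide spread. Adipocyte markers were present in every group, from 10 of 10 genes, with summed levels between 13603 and 23069 CPM, and Lep was the lowest of them throughout. Some libraries stood apart. Scramble cholesterol library 1 had the highest summed subunit level of its group, siNfe2l1 control library 4 likewise, and siNfe2l1 cholesterol libraries 3 and 4 lay at 27.7 and 24.0 on the first principal component, against 34.3 and 40.5 for the other 2 libraries of that group.

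Several proteasome promoters hold the core word of the element that NFE2L1 and its relatives bind as partners of small MAF proteins, TGACNNNGC. RefSeq promoters (250 bases before to 50 after a start, build GRCm38.p6) could be matched by symbol for 27 members, 29 promoters in all. The word, searched on both strands, was in 6 of these 29 (20.7%) and in 12.4% of all 32851 promoters. The looser word TGANNNNGC, which contains the first, was in 17 of 29 (58.6%) against 41.3%, and the box CCAAT was in 11 of 29 (37.9%) against 37.4%. The stretches that follow are 60 bases around the stricter word from the 5 members that carry it before the start, shown because the word is the one NFE2L1 is known to bind, with the word in capitals. They are written 5′ to 3′ along the gene's strand, and in Psmc6 and Psmd12 the word reads on the opposite strand. The Psmb5 stretch is chr14:54618009-54618068 on the minus strand. Those of Psmb6 (chr11:70525297-70525356), Adrm1 (chr2:180171400-180171459), Psmc6 (chr14:45329574-45329633) and Psmd12 (chr11:107479278-107479337) are on the plus strand.
Psmb5: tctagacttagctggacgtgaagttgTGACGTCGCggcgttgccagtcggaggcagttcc
Psmb6: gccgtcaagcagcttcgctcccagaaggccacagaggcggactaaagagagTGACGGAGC
Adrm1: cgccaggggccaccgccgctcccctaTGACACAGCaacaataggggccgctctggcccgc
Psmc6: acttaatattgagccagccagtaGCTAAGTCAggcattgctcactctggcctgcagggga
Psmd12: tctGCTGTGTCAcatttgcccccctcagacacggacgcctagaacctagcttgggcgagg
The word in Psmb6 ends directly before the start, and in Psmb5 it begins 47 bases before it. The sixth member with the word, Sem1, carries it after the start. A match describes these letters only, and no binding was measured here.

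Silencing Nfe2l1 lowered nearly the whole set. The summed level of the 33 subunits was 4204, 4250.4, 4213 and 4236 CPM in the 4 scramble control libraries and 3154, 3085, 3107 and 3439.6 CPM with siNfe2l1. The groups did not overlap, and the siNfe2l1 mean of 3196 ± 165 CPM (SD, n = 4) was 75.6% of the scramble mean of 4226 ± 21.4 CPM. By subcomplex the summed level was 74.8% of scramble for Psma, 77.4% for Psmb, 74.0% for Psmc and 75.9% for Psmd with Adrm1 and Sem1. Differences between subcomplexes were not tested. The median log2 fold changes in this comparison were -0.35, -0.39, -0.41 and -0.41 in that order, and in the siAtf3 background -0.33, -0.33, -0.35 and -0.24. In these bulk samples, fewer cells of a type and less RNA per cell cannot be told apart.

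**Figure D1:**
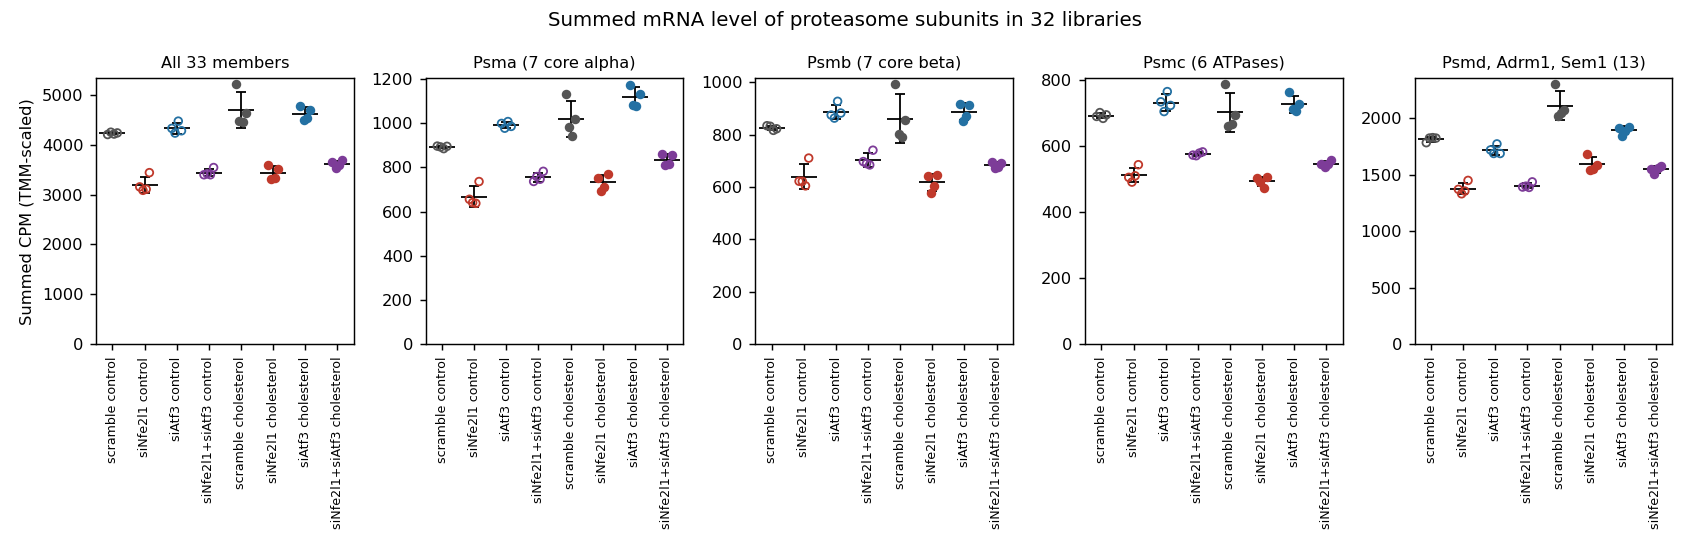
Summed level of the proteasome subunits (y axis, CPM on TMM-scaled library size) in each of the 8 groups (x axis), for all 33 members and by subcomplex. Points are the 4 libraries (open, control; filled, cholesterol), and bars are mean ± SD; every group with siNfe2l1 lies below the matching group without it.

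Counted gene by gene, 30 of 33 members fell and 0 rose with siNfe2l1 in control cells, with a median log2 fold change of -0.41. Of all genes tested, 2.87% were called lower and 3.13% higher, with a median of 0.0047. The other 3 comparisons that differ by siNfe2l1 alone gave like counts. In the siAtf3 background 30 members fell in control cells (median -0.33; 1.94% of all genes lower and 3.71% higher) and 31 in cholesterol (-0.35; 2.71% and 5.40%). In cholesterol without siAtf3 it was 32 (-0.45; 8.59% and 11.3%). No member rose in any of the 4. Each of 29 members was called lower in all 4, and 31 had all libraries with siNfe2l1 below all libraries without it in each. Of the 16984 genes, 1123 were below without overlap in control cells and 1301 there with siAtf3. In cholesterol it was 932, and 1068 with siAtf3. How many of all genes met either rule in all 4 was not computed. Of the remaining 4, Psmb6 and Psmd13 were called in 3, Sem1 in 1 and Psmd8 in none.

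**Figure D2:**
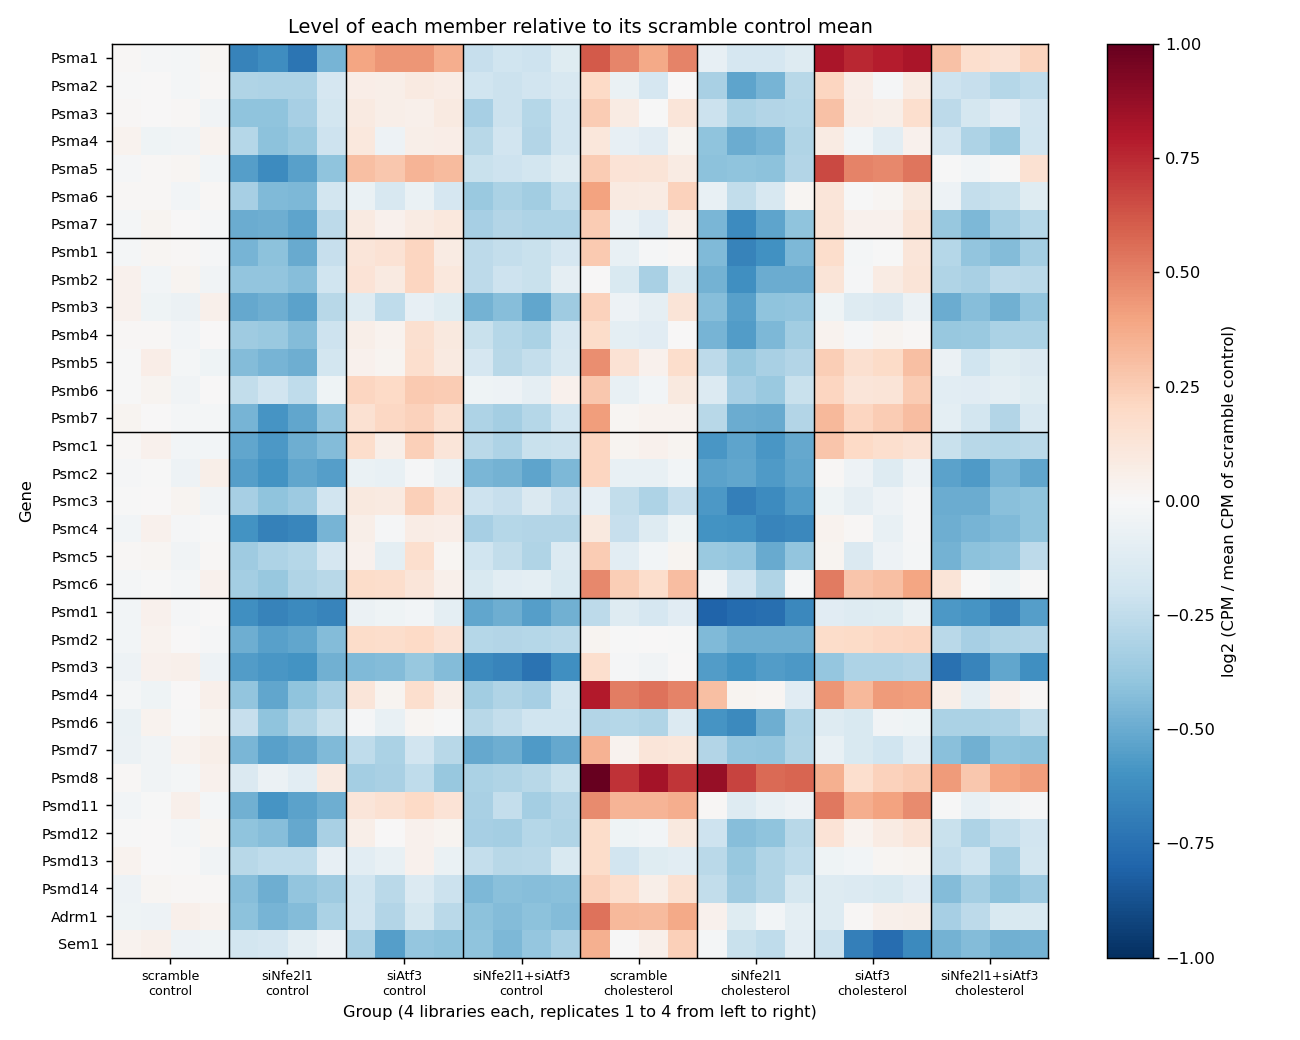
Level of each member (rows, grouped as Psma, Psmb, Psmc and Psmd with Adrm1 and Sem1) in all 32 libraries (columns), as log2 of CPM over the scramble control mean of that gene. Blue is lower and red higher, and the groups with siNfe2l1 are blue in most rows. Exceptions include Psmd8 outside double silencing control. In cholesterol they also include some members that cholesterol raised, such as Psmd4 with siNfe2l1.

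Among the alpha subunits all 7 fell in each of the 4 comparisons. Psma1 (ENSMUSG00000030751, GRCm39 chromosome 7, 113863841 to 113875353, minus strand) fell most. It measured 206, 203, 202 and 207 CPM in scramble control libraries and 129, 133, 123 and 148 CPM with siNfe2l1. No library overlapped (-0.62 ± 0.05, adjusted p = 2.44e-11), and the difference hardly varied between backgrounds, from -0.63 to -0.58. Psma5 was next in this ring, at -0.53 ± 0.05 in control cells. Psma2 fell least of the alpha subunits in control cells. It measured 115, 115, 113 and 116 CPM with scramble and 93.5, 92.8, 92.8 and 102 CPM with siNfe2l1 (-0.27 ± 0.06, adjusted p = 0.00179), and library 4 of the silenced cells was the closest to the scramble libraries. Averaged over the 4 comparisons, Psma6 was the least lowered alpha subunit, at -0.27. Its control call in the siAtf3 background was lost without any 1 of siAtf3 control libraries 1, 2 and 3 or double silencing control libraries 1, 2 and 3, at -0.22 to -0.19. In cholesterol it was lost there without double silencing library 2 or 3, at -0.21 each. Psma5 has a processed copy in the table, Psma5-ps, with a mean of 6.81 CPM, and reads may be split between these near-identical genes.

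The beta ring holds the protease sites. Psmb5 (ENSMUSG00000022193, GRCm39 chromosome 14, 54851576 to 54855479, minus strand), the chymotrypsin-like site, measured 123, 129, 122 and 119.6 CPM with scramble and 91.5, 89.4, 87.8 and 108 CPM with siNfe2l1 in control cells (-0.39 ± 0.06, adjusted p = 7.29e-05). All 4 silenced libraries lay below all 4 scramble libraries, with library 4 highest. In cholesterol it was 170.1, 136, 127 and 139 CPM with scramble against 103, 94.9, 98.7 and 100.5 CPM (-0.53 ± 0.06), again with no overlap. Psmb7, the trypsin-like site, went from 97.9, 96.0, 94.8 and 94.8 CPM to 69.3, 63.8, 67.0 and 72.9 CPM in control cells (-0.49 ± 0.07, adjusted p = 2.62e-06), the largest fall among the beta subunits there. Psmb6, the caspase-like site, had the smallest. Its levels were 98.4, 100.4, 96.3 and 98.9 CPM with scramble and 83.1, 86.1, 82.8 and 95.4 CPM with siNfe2l1, and these too did not overlap. The difference of -0.18 ± 0.06 narrowly missed the threshold (adjusted p = 0.0511). It passed without siNfe2l1 control library 4 (-0.22), and in edgeR with library totals alone (-0.18, adjusted p = 0.0413). It was called in the other 3 comparisons, at -0.27 ± 0.06, -0.33 ± 0.06 and -0.29 ± 0.06. The structural beta subunits Psmb1 to Psmb4 fell by 0.34 to 0.45 in control cells.

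All 6 ATPase genes fell in each of the 4 comparisons. Psmc4 showed the largest fall in control cells, from 125, 131, 126 and 127 CPM to 84.2, 79.6, 80.9 and 92.4 CPM (-0.60 ± 0.05, adjusted p = 1.32e-10). Psmc5 showed the smallest, from 101, 102, 97.8 and 101 CPM to 78.3, 81.1, 82.6 and 89.1 CPM (-0.28 ± 0.06, adjusted p = 0.0027). Neither pair of groups overlapped. In the siAtf3 background Psmc5 fell by 0.26 in control cells, and that call was lost without siAtf3 control library 3 (-0.20). Averaged over the 4 comparisons, Psmc1 and Psmc2 each changed by -0.50 and Psmc5 by -0.33.

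The non-ATPase subunits were the most uneven. Psmd1 (ENSMUSG00000026229, GRCm39 chromosome 1, 85992109 to 86066873, plus strand), a large scaffold of the regulatory particle, fell from 167, 176, 169 and 171 CPM to 111, 107, 109.9 and 108 CPM (-0.64 ± 0.04, adjusted p = 6.2e-14), the largest fall of any member in control cells. Its 2 groups were far apart and each was tight. Psmd2, the other large scaffold and the member with the highest CPM (336.5 in scramble control cells), fell by 0.46 to 0.50 in all 4 comparisons. Psmd11 fell by 0.44 to 0.52. At the other end, Psmd13 changed by -0.25 to -0.18 and Psmd6 by -0.29 to -0.21. The control call of Psmd13 (-0.21 ± 0.06) was lost without scramble library 1 or 3 or siNfe2l1 library 1, 2 or 3, at -0.21 to -0.19. In the siAtf3 background Adrm1, a ubiquitin receptor, fell by 0.19 in control cells, and that call was lost without any 1 of 6 libraries (siAtf3 control libraries 1 and 3 and all 4 of double silencing control, at -0.19 to -0.17). Psmd6 lost its call there without siAtf3 control library 3 or double silencing control library 1 (-0.19 each).

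Psmd8 (ENSMUSG00000030591, GRCm39 chromosome 7, 28873613 to 28880126, minus strand), a lid subunit of the regulatory particle, did not follow the set. It measured 192, 185, 187 and 196 CPM with scramble and 172, 182, 177 and 203 CPM with siNfe2l1 in control cells. The groups overlapped (-0.05 ± 0.07, adjusted p = 0.777). The difference was 0.05 ± 0.07 in the siAtf3 background, 0.12 ± 0.07 there in cholesterol, and -0.17 ± 0.07, adjusted p = 0.062 in cholesterol without siAtf3. The last value ran from -0.25 without siNfe2l1 cholesterol library 1 (called) to -0.08 without scramble cholesterol library 1, and it was also called without scramble cholesterol library 2 or 4 (-0.22 each). It was called as well with DESeq2 size factors (-0.18, adjusted p = 0.047), the DESeq2 Wald test (-0.18, adjusted p = 0.0419) and no filter on low counts (-0.19, adjusted p = 0.018). Whether siNfe2l1 lowered Psmd8 in cholesterol therefore depends on the setting. Sem1, the small acidic lid subunit, measured 67.2, 68.1, 63.3 and 63.7 CPM with scramble and 57.8, 58.5, 61.4 and 63.3 CPM with siNfe2l1 (-0.12 ± 0.08, adjusted p = 0.472), where silenced library 4 reached the scramble range. It fell only in cholesterol without siAtf3 (-0.31 ± 0.08, adjusted p = 0.00473), and in the siAtf3 background it was at 0.02 ± 0.08 in control cells and 0.09 ± 0.08 in cholesterol. The second of these was called higher (0.21) without siAtf3 cholesterol library 1. A difference of either gene from the other members was not tested.

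**Figure D3:**
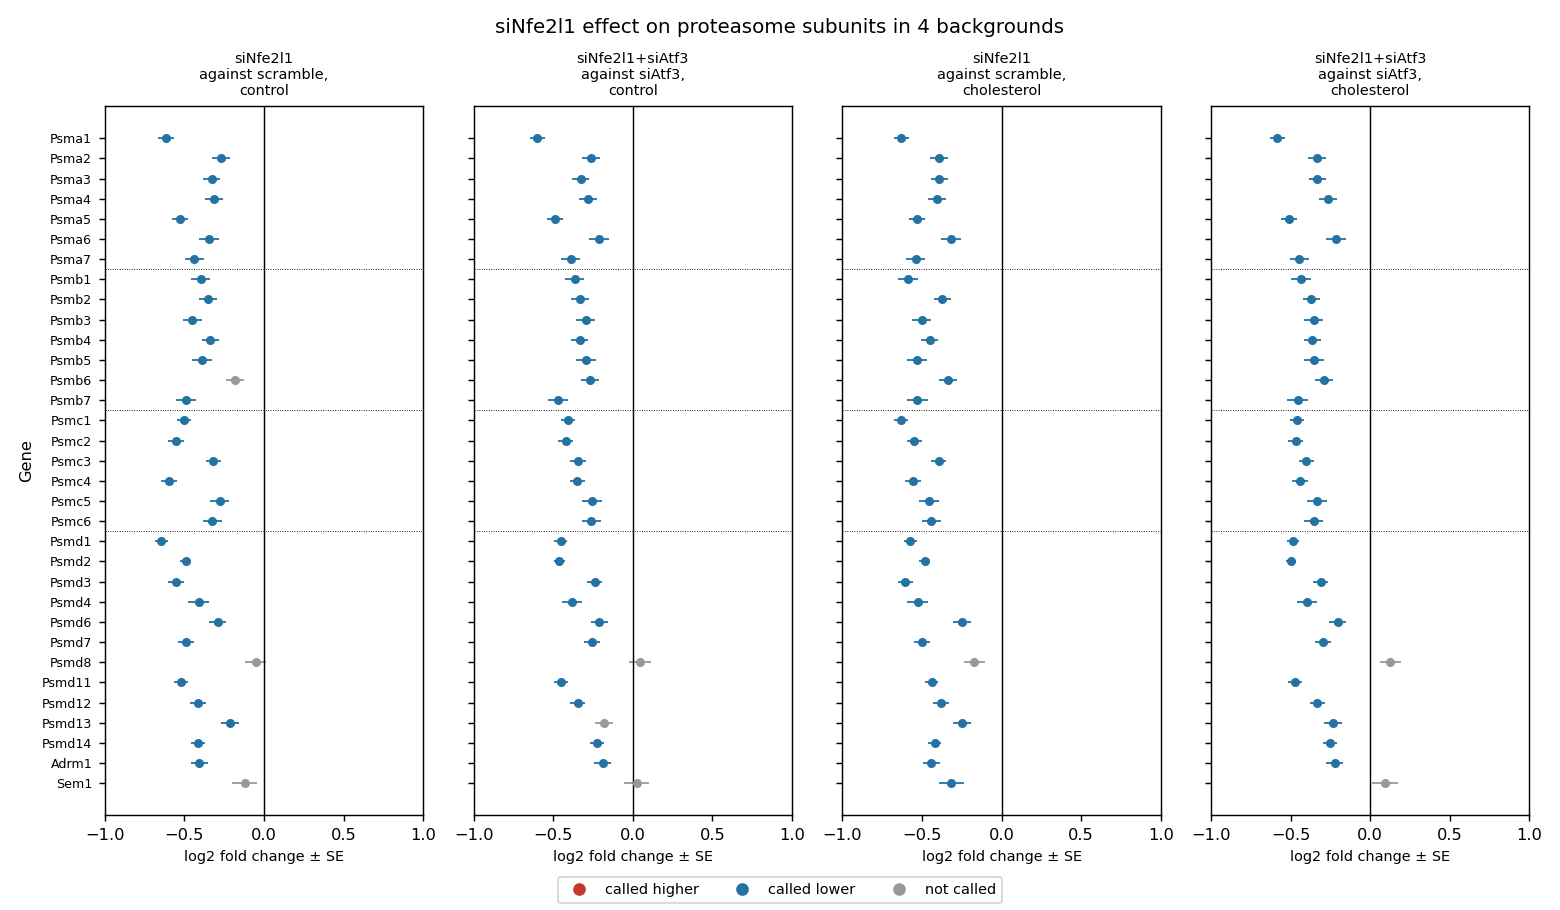
Log2 fold change ± SE of each member (rows) in the 4 comparisons that differ by siNfe2l1 alone (panels); blue points were called lower, and gray points were not called. Psmd8 is gray in each panel, at values from -0.17 to 0.12, and most other members lie between -0.65 and -0.18.

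Members kept much of their order between backgrounds. The comparisons with and without siAtf3 in control cells use different libraries, and across the 33 members their log2 fold changes correlated with Pearson's r = 0.79 (0.16 over all genes tested). In cholesterol r was 0.76 (0.18 over all genes). Control against cholesterol gave 0.84 without siAtf3 (0.29 over all genes) and 0.97 with it (0.33). Spearman's rank correlations of the members were 0.70, 0.72, 0.80 and 0.95 in the same order. These values describe the spread among members that share libraries, with no test. Neither the level in scramble control cells (r = -0.31) nor the gene model length (r = -0.13) tracked the fall closely. Per kilobase of gene model, members ran from 17.9 (Psmd11) to 137 CPM (Psmb5) in scramble control cells, with a median of 45.4. Lengths are those in the deposited table. The 6 members with TGACNNNGC had a median of -0.33 over the 4 comparisons, and the 21 matched members without it -0.40.

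Markers of macrophages moved with siNfe2l1. In control cells 9 of 10 were called higher (median 0.65), with summed levels of 212 to 249 CPM in scramble and 283 to 428 CPM in siNfe2l1 libraries. In cholesterol 9 of 10 were higher, from 131 to 161 CPM with scramble and from 239 to 278 CPM with siNfe2l1. In the siAtf3 background 7 of 10 were higher in each medium, with 293 to 382 against 475 to 516 CPM in control cells and 141 to 176 against 214 to 238 CPM in cholesterol. No macrophage marker was at 0 in any group. Of 8 fibroblast and precursor markers, 7 were tested, and 2 were called higher in control cells and 3 in cholesterol (2 and 5 in the siAtf3 background), with Dpp4 near 0 throughout. Their summed level was 23374 to 24692 CPM in scramble and 26030 to 28352 CPM in siNfe2l1 control libraries. Of 10 adipocyte markers, 1 was called higher and 1 lower in control cells, and 1 and 2 in cholesterol. In the siAtf3 background 5 and 3 were higher, and 0 lower. The adipocyte sum was 17512 to 18168 CPM in scramble and 15392 to 17480 CPM in siNfe2l1 control libraries. With siAtf3 it was 13603 to 14688 CPM, and 14850 to 15544 CPM with both. Of 6 endothelial markers, 4 were higher in cholesterol and 0 were called in control cells. The part of all these markers in the fall of the proteasome genes was not tested.

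Some genes of partner complexes also fell with siNfe2l1. Of 6 genes of the p97 (VCP) complex, which extracts and unfolds ubiquitinated proteins for the proteasome, 5 fell in control cells with siNfe2l1, 4 in the siAtf3 background, and 5 in each of the cholesterol comparisons. Vcp itself changed by -0.45 ± 0.05 and its cofactor Nploc4 by -0.50 ± 0.04 in control cells. Of 9 assembly factors only Pomp, which guides assembly of the core, fell in all 4 comparisons (-0.40 ± 0.06 in control cells), and 1, 1, 3 and 1 of the 9 were called lower in control cells, in control cells with siAtf3, in cholesterol and in cholesterol with siAtf3. In the same order, 3, 2, 4 and 3 of 9 proteasome-bound ubiquitin enzymes and shuttles fell. Usp14, a deubiquitinase on the regulatory particle, changed by -0.30 ± 0.05 in control cells, and Usp14 and Rad23b fell in all 4. The inducible catalytic subunits and activators (7 genes) held 1, 2, 2 and 1 called lower in that order, and 1 called higher. In control cells Psmb8 rose (0.23 ± 0.06, adjusted p = 0.0178) and Psme4, an activator cap, fell (-0.23 ± 0.05, adjusted p = 0.00489). Of 6 genes of NFE2L1 relatives and small MAF partners, none was called in these 4 comparisons. Nfe2l2 was among them, at -0.01 ± 0.07 in control cells. These 6 genes did move in other comparisons. All 6 were called higher with cholesterol in scramble cells (median 1.27, against 32.9% of all genes higher). With siAtf3 in cholesterol all 6 were called lower (median -0.46, against 27.4%). Their part in the subunit levels was not tested. The core subunits restricted to other tissues, Psma8 and Psmb11, summed to at most 0.345 CPM and were not tested.

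Cholesterol treatment changed members unevenly. In scramble cells 11 of 33 rose and 4 fell (median 0.06), against 32.9% of all genes higher and 32.3% lower, so the share of subunits called higher was near that of all genes and the share called lower was below it. The summed level was 5219, 4469, 4447 and 4639 CPM with cholesterol, all above the 4204 to 4250.4 CPM of control libraries, and library 1 was highest. On library totals alone the sums were 4255 ± 276 CPM with cholesterol and 4174 ± 30.6 CPM without (SD, n = 4), a difference smaller than the spread of the cholesterol libraries. With siNfe2l1 the counts were 10 and 4 (31.1% and 29.0% of all genes), with siAtf3 9 and 1 (29.4% and 28.6%), and with both 8 and 3 (29.8% and 28.9%). Over the 4 backgrounds 16 members were never called and none was called in opposite directions. Like counts over all genes, including genes called the same way in all 4, were not computed. Over all genes the response in scramble cells correlated with that in siNfe2l1 (Pearson's r = 0.91), siAtf3 (0.87) and double silencing cells (0.88). A shared direction is thus not particular to the subunits.

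In the beta ring only Psmb5 was called higher with cholesterol, in scramble cells (0.21 ± 0.06). That call was lost with library totals alone (0.09, adjusted p = 0.184), and its response was not called as different with siNfe2l1 (-0.14 ± 0.09, adjusted p = 0.467). Psma1, Psma5, Psma6, Psmc6, Psmd4, Psmd8, Psmd11 and Adrm1 rose in all 4 backgrounds. Psmd8 rose most. In scramble cells it went from 192, 185, 187 and 196 CPM to 408, 315, 339 and 313 CPM (0.85 ± 0.07, adjusted p = 1.14e-13), and without cholesterol library 1 the difference was 0.76. With siNfe2l1 it reached 348, 304, 282 and 285 CPM (0.73 ± 0.07), and with siAtf3 244, 213, 223 and 227 CPM (0.58 ± 0.07). The control and cholesterol libraries of Psmd8 did not overlap in any of these backgrounds. The ubiquitin receptor Psmd4 was at 124 to 132 CPM in scramble control libraries and 179.9 to 221 CPM with cholesterol (0.59 ± 0.06), and Psma1 was at 202 to 207 and 266 to 312 CPM (0.50 ± 0.05). Adrm1, another receptor, rose by 0.39 ± 0.05 and Psmd11 by 0.38 ± 0.04. Psmc3 was the only member lower in all 4 backgrounds, from -0.29 ± 0.05 with siNfe2l1 to -0.19 ± 0.05 with siAtf3. In scramble cells Psmd6 (-0.25 ± 0.05), Psmd1 (-0.17 ± 0.04) and Psmb2 (-0.15 ± 0.05) also fell. Psmd8 thus had the largest response to cholesterol of any member in each background.

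The cholesterol counts depend on how libraries are scaled, and in part on other settings. With siNfe2l1 the 10 higher and 4 lower became 10 and 8 with DESeq2 size factors (5046 and 5156 of all genes). They became 10 and 9 with a replicate block (5351 and 4994), and 6 and 9 without the filter on low counts (4550 and 5335). With both siRNAs the 8 and 3 became 7 and 5 with DESeq2 size factors (4885 and 5074). With library totals alone, which moves the median of all genes by -0.12 in scramble cells, 6 members rose and 11 fell there, and 6 and 14, 7 and 10, and 6 and 11 in the siNfe2l1, siAtf3 and double silencing backgrounds. Of the 16984 genes, 4332 were then higher and 6804 lower in scramble cells, 4389 and 5893 with siNfe2l1, 4021 and 5681 with siAtf3, and 4140 and 5784 with both. Psma1, Psmd4, Psmd8, Psmd11 and Adrm1 stayed higher in all 4 under that scaling (Psmd8 0.73 in scramble cells), and Psmc3 stayed lower. Markers of fibroblasts and precursors moved with cholesterol as well: 7 of 7 tested were lower in scramble cells, and their summed level went from 23374 to 24692 CPM down to 7039 to 8007 CPM. Macrophage markers were lower for 8 of 10 and higher for 0. Endothelial markers were lower for 5 of 6 and higher for 1 (2.68), and smooth muscle markers lower for 3 of 5 and higher for 1. Adipocyte markers were higher for 8 of 10 and lower for 1, with summed levels of 17512 to 18168 CPM in control and 21154 to 23069 CPM in cholesterol libraries. Their part in the cholesterol response of the subunits was not tested. Without siAtf3, no detectable difference in the response to siNfe2l1 between control and cholesterol was found for any single member. In that interaction 0 of 33 were called (0.247% of all genes), with differences of -0.19 to 0.08, and 2 members had an unadjusted p under 0.05. Most differences were below 0, for 25 of 33 members and all 7 Psmb genes (median -0.11), against 8042 of 16984 genes.

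**Figure D4:**
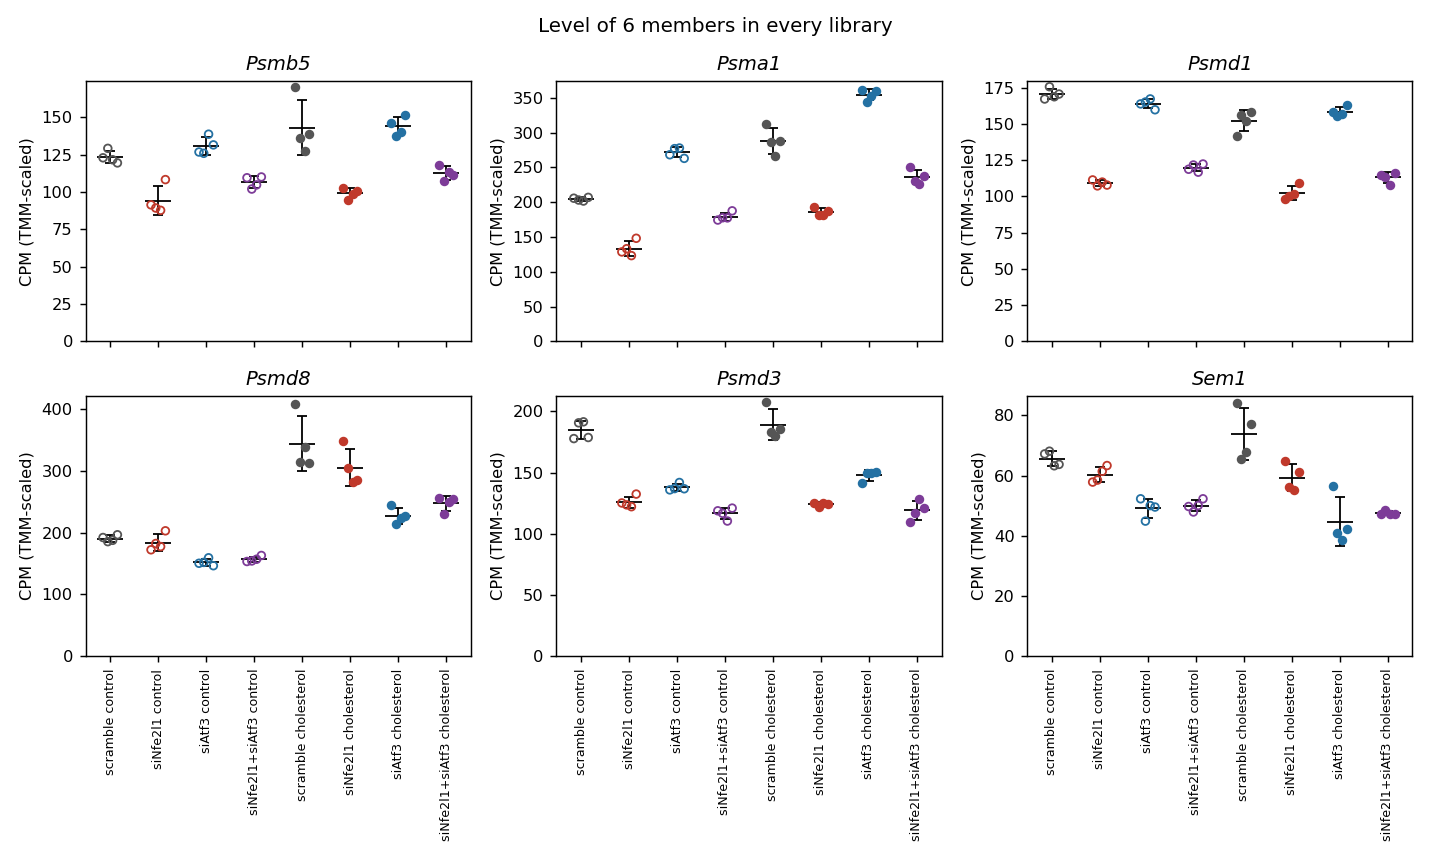
Level (y axis, CPM on TMM-scaled library size) of 6 members in every library by group (x axis). Points are libraries (open, control; filled, cholesterol) and bars are mean ± SD; Psmb5, Psma1 and Psmd1 are lower in each group with siNfe2l1, Psmd8 is higher in each cholesterol group, and Psmd3 and Sem1 are lower with siAtf3 than with scramble.

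Silencing Atf3 raised some members and lowered others. In control cells 9 members rose and 6 fell (median 0.07), against 18.1% of all genes higher and 18.2% lower, and in cholesterol 7 rose and 9 fell (median 0.04; 23.0% and 27.4%). Apart from the higher calls in control cells, these shares were near those of all genes. The summed Psma level was 111% of scramble in control cells and 109.6% in cholesterol, while the summed Psmd level was 94.6% and 89.6%. The direction of the Psmd sum turned with the scaling: on library totals alone it was 1793 ± 16.7 CPM with scramble and 1866 ± 48.7 CPM with siAtf3 in control cells, and 1915 ± 90.5 and 1954 ± 16.1 CPM in cholesterol (SD, n = 4). All 6 members that fell in control cells were regulatory particle genes, and they fell in cholesterol too. They were the lid subunits Psmd3, Psmd7, Psmd8, Sem1 and the deubiquitinase Psmd14, with the receptor Adrm1. Psmd3 (ENSMUSG00000017221, GRCm39 chromosome 11, 98573380 to 98586805, plus strand) measured 178, 191, 191 and 179 CPM with scramble and 136, 137, 142 and 137 CPM with siAtf3 (-0.42 ± 0.05, adjusted p = 4.2e-09), without overlap. Sem1 (ENSMUSG00000042541, GRCm39 chromosome 6, 6557294 to 6578663, minus strand) was at 44.9 to 52.3 CPM, below all scramble control libraries (-0.41 ± 0.08, adjusted p = 8.11e-05), and in cholesterol it went from 84.1, 65.5, 68.0 and 77.3 CPM to 56.6, 40.9, 38.7 and 42.3 CPM (-0.73 ± 0.08, adjusted p = 3.33e-09), with library 1 of the silenced cells highest. Psmd8 changed by -0.32 ± 0.07 in control cells and -0.60 ± 0.07 in cholesterol.

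The members that rose with siAtf3 were led by Psma1 (0.41 ± 0.05 in control cells and 0.30 ± 0.05 in cholesterol) and Psma5 (0.31 ± 0.05 and 0.39 ± 0.05). Psma1 measured 268, 277, 278 and 263 CPM with siAtf3 in control cells, above every scramble control library. The catalytic genes Psmb6 (0.23 ± 0.06) and Psmb7 (0.19 ± 0.06) rose in control cells, and Psmb5 was not called (0.08 ± 0.06, adjusted p = 0.32). Across members the siAtf3 responses in control cells and in cholesterol, which use different libraries, correlated with r = 0.89 (0.58 over all genes). In both, 12 members were called in the same direction, and the like count over all genes was not computed. The split between lower Psmd genes and higher core genes depends in part on scaling and on the filter. Without the filter on low counts 5 members rose and 7 fell in control cells, against 2411 and 2953 of all genes. With library totals alone, where the median of all genes shifts by 0.15 in control cells and 0.17 in cholesterol, 21 members rose and 4 fell in control cells, and 23 rose and 4 fell in cholesterol. Of the 16984 genes, 5913 were then higher and 1871 lower in control cells, and 6707 and 2712 in cholesterol. Psmd3, Psmd8 and Sem1 were lower in both media under that scaling (-0.28, -0.19 and -0.28 in control cells). The calls of Psmd14 were lost in both media, that of Adrm1 in control cells and that of Psmd7 in cholesterol. Adipocyte markers moved with siAtf3: 5 of 10 were lower in control cells and 7 of 10 in cholesterol, with 0 higher, and their summed level was 17512 to 18168 CPM in scramble control and 13603 to 14688 CPM in siAtf3 control libraries. Fibroblast and precursor markers were lower for 5 of 7 tested and higher for 1 in control cells, and lower for 6 of 7 in cholesterol. Their summed levels with siAtf3 were 16458 to 17165 CPM and 3816 to 4198 CPM. Macrophage markers were higher for 4 of 10 and lower for 1 in control cells, and higher for 1 and lower for 4 in cholesterol. Endothelial markers were lower for 3 of 6 in control cells and 4 of 6 in cholesterol, with 0 higher. Of 5 smooth muscle markers, 1 was higher and 1 lower in control cells, and 2 and 1 in cholesterol. The part of these markers in the siAtf3 response of the subunits was not tested.

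**Figure D5:**
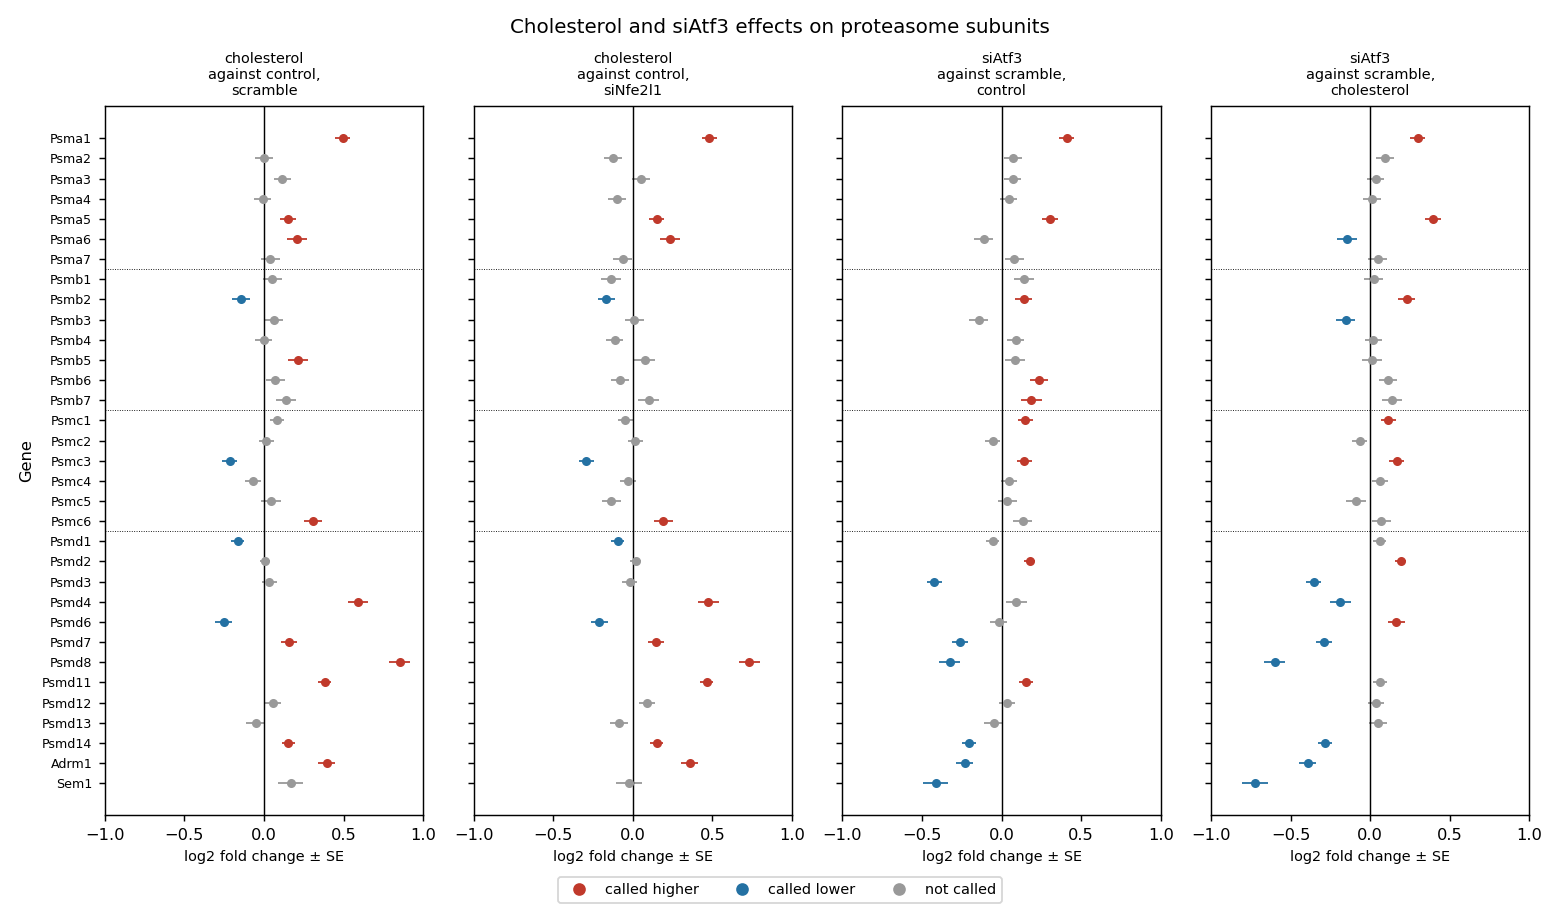
Log2 fold change ± SE of each member (rows) for cholesterol in scramble and siNfe2l1 cells (left panels) and for siAtf3 in control cells and in cholesterol (right panels); red points were called higher, blue lower and gray not called. Psmd8 lies farthest right for cholesterol and left of 0 for siAtf3.

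Double silencing is compared here with the same scramble libraries as the single siRNAs. Against scramble, 31 members fell in control cells (median -0.28; 14.3% of all genes lower and 12.9% higher) and 32 in cholesterol (-0.35; 23.9% and 20.8%). Psmb6 (-0.03 ± 0.06) and Psmc6 (-0.13 ± 0.06) were not called in control cells, nor Psmd6 (-0.04 ± 0.05) in cholesterol. With library totals alone 20 and 25 fell, against 1473 and 2299 of the 16984 genes. Psmd8 and Sem1, which siNfe2l1 alone did not lower in control cells, were among those lower, at -0.28 ± 0.07 and -0.39 ± 0.08. Psmd3 was the lowest, at -0.66 ± 0.05 in control cells and -0.67 ± 0.05 in cholesterol. The summed level was 3397, 3417, 3397 and 3542 CPM in control cells and 3647, 3526, 3595 and 3685 CPM in cholesterol, which was 81.4% and 77.0% of the matching scramble mean. Macrophage markers were higher for 9 of 10 in control cells and 5 of 10 in cholesterol. Fibroblast and precursor markers were lower for 4 and 6 of 7 tested, with 1 higher in cholesterol, and adipocyte markers were lower for 3 and 6 of 10. Their part in the lower subunit levels was not tested.

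Compared with siNfe2l1 alone, double silencing left 12 members higher and 2 lower in control cells (median 0.10; 12.3% and 14.5% of all genes), and 16 higher and 4 lower in cholesterol (0.14; 15.7% and 20.9%). Psma1 (0.43 ± 0.05), Psma5 (0.34 ± 0.05) and Psmc4 (0.29 ± 0.05) were raised most in control cells, and the 2 that were lower were Sem1 (-0.27 ± 0.08) and Psmd8 (-0.23 ± 0.07). The total of 14 called in control cells fell to 8 without siNfe2l1 control library 2. With library totals alone the counts were 24 and 0 in control cells and 23 and 2 in cholesterol, against 4158 higher and 1523 lower of the 16984 genes in control cells and 4523 and 2312 in cholesterol. Nfe2l1 mRNA itself was less reduced by double silencing than by siNfe2l1 alone, with a difference of 0.63 ± 0.07 in control cells and 0.39 ± 0.07 in cholesterol. In the same comparison in cholesterol macrophage markers were lower for 8 of 10, fibroblast and precursor markers for 6 of 7 and endothelial for 5 of 6. Adipocyte markers were lower there for 6 of 10 and higher for 1. In control cells fibroblast and precursor markers were lower for 5 of 7 and adipocyte for 4 of 10, with 3 higher, and macrophage markers were higher for 2 of 10 and lower for 1. The part of Nfe2l1 and of these markers in the higher subunit levels was not tested.

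With TMM scaling, departures from the sum of the single effects mostly had the same sign. The interaction of siNfe2l1 with siAtf3 was above 0 for 31 of 33 members in control cells (median 0.06) and 30 of 33 in cholesterol (0.09), against 8479 and 8427 of 16984 genes, and few of these were called. For some members the sign depends on scaling. With library totals alone in control cells, siNfe2l1 changed Psma1 by -0.64 with siAtf3 and -0.61 without, and Psma2 by -0.30 and -0.26. These departures were then below 0, while that of Psmc4 (-0.38 and -0.59) stayed above 0. The number of members above 0 under that scaling is not given here. Over all genes, 154 interactions were then called higher and 175 lower in control cells, against 232 and 96 with TMM. In cholesterol 262 were called higher and 966 lower, against 475 and 390 with TMM. Nfe2l1 itself was called (0.65 in control cells and 0.52 in cholesterol), and its part was not tested. The number called ran from 1 to 6 in control cells and from 0 to 6 in cholesterol over the alternatives. In the interaction of siNfe2l1 with siAtf3, Psmd3 was called in control cells (0.31 ± 0.07, adjusted p = 0.00602; 1.93% of all genes called) and in cholesterol (0.30 ± 0.07, adjusted p = 0.00669; 5.09%), and Sem1 was called in cholesterol (0.41 ± 0.11, adjusted p = 0.0298). The Psmd3 levels were 125, 124, 122 and 132 CPM with siNfe2l1, 136 to 142 CPM with siAtf3 and 119, 117, 110.4 and 121 CPM with both in control cells, so the second siRNA lowered it less than it did alone. The Psmd3 interactions were called in each of 16 fits that left out 1 library, but with only the groups compared the call in cholesterol was lost (0.29, adjusted p = 0.0664). The Sem1 call was lost in 6 of 16, without scramble cholesterol library 1, siNfe2l1 cholesterol library 2 or 3, or siAtf3 cholesterol library 2, 3 or 4, at values down to 0.34. In the interaction of siAtf3 with cholesterol, Psmd4 (-0.28 ± 0.09, adjusted p = 0.0331) and Psmd8 (-0.27 ± 0.09, adjusted p = 0.0428) rose less with cholesterol after siAtf3, against 15.3% of all genes called. Both calls changed when single libraries were left out. Leaving out 1 of 16 libraries ended the Psmd4 call in all fits but those without siAtf3 control library 2, scramble cholesterol library 2 or 4, or siAtf3 cholesterol library 1. It ended the Psmd8 call in all but those without scramble cholesterol library 2 or 4 or siAtf3 cholesterol library 1. Without scramble cholesterol library 1 the values were -0.21 for Psmd4 and -0.18 for Psmd8.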

How the data were processed

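Polyadenylated RNA of 32 libraries was measured by RNA-seq. The tools named in the submitters' processing notes are fastp, HISAT2 2.0.5 and featureCounts 1.5.0-p3, and the build is GRCm39 (mm39); the notes give no settings. The values used are the read counts per gene as deposited by the authors, with no normalization, and the gene lengths beside them. The setting for strand and for reads matching several places is not given in the sources used here, so near-identical copies could share reads. A column name with "C" was read as cholesterol.

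Counts were scaled by TMM and fitted with edgeR 4.0.16 (robust quasi-likelihood, 8 group means; R 4.3.3) after filterByExpr (minimum count 10, total 15). Adjusted p-values are Benjamini-Hochberg over 16984 genes, and the threshold was 0.05. The SE is the log2 fold change over the root of F. Counts per library of a member were 1098 to 11080. Alternatives were DESeq2 1.42.0 size factors and Wald test, library totals alone, no filter, limma-voom (limma 3.58.1), only the groups compared, a replicate block, and libraries left out. The members and gene lists were chosen with earlier results of these data known. Named with every library were Psmb5, Psmb6, Psmb7 and the members of each subcomplex with the lowest and highest fold change for siNfe2l1 in control cells. Members not called were named where 5 or fewer, members called where 10 or fewer, and otherwise the 3 largest in each direction; other members were named after their values were seen. Sequences are RefSeq promoters of GRCm38.p6, used for letters only, since the counts are on GRCm39. Psmb1, Psmb2, Psmb7, Psmc3, Psmd3 and Psmd7 were not matched.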

Additional observations from a re-analysis of the deposited data

Results flagged for a closer look

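In groups of 4 libraries, a library counts as standing apart when its gap to the nearest other as a share of the range exceeds Dixon's 95% critical value. Of 128 groups tested, 10 held such a library, and chance gives about 1 in 20. For members these were Psma2 at 102 CPM in siNfe2l1 control library 4, Psmb7 at 128 CPM in scramble cholesterol library 1, Psmc4 at 126 CPM in siAtf3 control library 2 and Psmc5 at 97.8 CPM in scramble control library 3. For Atf3 they were 25.4 CPM in siNfe2l1 control library 3 and 52.7 CPM in siAtf3 cholesterol library 1. Among summed levels they were 3542 CPM for all members in double silencing control library 4 and 710.2 CPM for Psmb in siNfe2l1 control library 4. For Psmd they were 1784 CPM in scramble control library 1 and 2304 CPM in scramble cholesterol library 1.

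Other results stood out because an effect differed between backgrounds by an edgeR interaction term. The cholesterol response was smaller with siAtf3 for Psmd4 (-0.28), Psmd8 (-0.27) and Atf3 itself (-1.88). The effects of the 2 siRNAs together differed from their sum for Psmd3 (0.31) and Nfe2l1 (0.65) in control cells, and for Psmd3 (0.30), Sem1 (0.41) and Nfe2l1 (0.52) in cholesterol.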

How the results depend on the processing

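The counts of members lowered by siNfe2l1 alone stayed within 1.5 times of the reported ones under every alternative run. With library totals alone the members called were 17 for cholesterol with siAtf3 and 17 with both siRNAs, 25 for siAtf3 in control cells and 27 in cholesterol, 24 for double silencing against siNfe2l1 and 20 against scramble in control cells, and 1 each for the interactions of siAtf3 with cholesterol and of both siRNAs in cholesterol. Reversed there were Psmc2 (-0.11) and Psmd2 (-0.12) for cholesterol in scramble cells. For siAtf3 in cholesterol these were Psma6 (0.042), Psmb3 (0.034), Psmc2 (0.12) and Psmd4 (0.00027), and for double silencing against scramble in cholesterol Psma5 (0.032) and Psmb2 (0.0084). For both siRNAs in control cells the interaction called 2 members with DESeq2 size factors, 5 with the DESeq2 Wald test, 3 with limma-voom and 6 with only the groups compared. In cholesterol it called 6 with the Wald test, 0 with only the groups compared (quasi-likelihood in edgeR; Psmd3 then 0.29, adjusted p = 0.0664), and 1 without siNfe2l1 cholesterol libraries 3 and 4 together. For siAtf3 with cholesterol it called 1 without the filter. Leaving out 1 library gave 8 to 16 members for double silencing against siNfe2l1 in control cells, 0 to 3 for the interaction of siAtf3 with cholesterol, and 1 to 2 and 1 to 5 for both siRNAs in control cells and in cholesterol.

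The replicate numbers paired the libraries weakly, and not evenly. Over 112 same-number pairs of groups the correlation of deviations was -0.08 to 0.26 (median 0.0090). In 39 of the pairs the library matched its own number best, more than random matching among 4 libraries gives on average. All 6 correlations above 0.1 were between cholesterol groups, the highest for library 1 of scramble and siNfe2l1 cholesterol (0.26). The main fits hold no replicate block, so variation shared between cholesterol groups is not modelled there. With the replicate block in edgeR the interaction of siAtf3 with cholesterol called 4 members and that of both siRNAs in control cells called 3. Psmd8 was then called lower with siNfe2l1 in cholesterol (-0.17, adjusted p = 0.0436). The other total counts of members stayed within 1.5 times. That rule compares totals and not directions. For cholesterol with siNfe2l1 the block gave 10 higher and 9 lower, against 10 and 4 in the main fit.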
